A study of Mus musculus with 6 samples.

Results

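The 43 genes described here encode the machinery of mitosis and of the G2/M transition, and were chosen by name from what they are known to do: kinases and cyclins that drive entry into mitosis, the chromosomal passenger complex, the spindle checkpoint with its target ubiquitin ligase, kinetochore proteins, chromosome structure proteins, spindle motors and cytokinesis factors. The choice was made with earlier results of these data known. The genes are 43 of the 54446 in the count table. All 43 passed the filter on low counts that left 13172 genes for testing. The study is a total RNA-seq experiment that asks how expression in regulatory T cells (Treg cells, the Foxp3-dependent CD4 T cells that restrain immune responses) depends on Ythdf2, a protein that binds m6A-marked RNA and promotes its decay. Treg cells were sorted as live CD45+ CD4+ GFP+ cells, GFP marking Foxp3, from subcutaneous tumours of B16F10, a mouse melanoma line. The 3 control libraries carry the genotype Foxp3Cre Ythdf2fl/+ and the 3 conditional knockout (cKO) libraries Foxp3Cre Ythdf2fl/fl. Both groups therefore carry Cre under Foxp3 control, and the controls, titled WT control, carry 1 floxed Ythdf2 allele. The titles place each library in 1 of 2 cages: control replicates 1 and 2 and cKO replicate 1 belong to cage 1, and control replicate 3 and cKO replicates 2 and 3 to cage 2. Age and strain were not given in the sources used here, nor whether each library came from a separate animal, so p-values measure the spread between these libraries.

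Cells transcribe most of these genes in waves that peak in G2 and mitosis. The DREAM complex lifts from their promoters earlier in the cycle, and B-MYB and FOXM1 take over. These factors act through a promoter motif called the cell cycle genes homology region (CHR) and often through CCAAT boxes bound by NF-Y. Cyclin-dependent kinase 1 with B-type cyclins starts mitosis, the spindle checkpoint holds it until every kinetochore is attached, and the anaphase-promoting complex (APC/C) with Cdc20 ends it by destroying cyclin B. In tissues the summed level of such transcripts is commonly read as a measure of how many cells are cycling, and Treg cells inside tumours are known to proliferate.

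The promoter sequence just before the start of 5 of these genes is shown: 4 windows in which the motifs known for G2/M genes can be read, and that of Anln, which holds neither. Each run is the 120 bases before the transcription start, 5′ to 3′ on the gene's strand, from RefSeq on GRCm38.p6 (the mm10 build). Capitals mark a CHR element, searched as TTTGAA or TTTAAA, or a CCAAT box, both on either strand. The windows lie at chr10:69352913-69353032 on the minus strand for Cdk1, chr13:100786487-100786606 (minus) for Ccnb1, chr4:118437344-118437463 (minus) for Cdc20, chr5:30666766-30666885 (plus) for Cenpa and chr9:22389207-22389326 (minus) for Anln.
Cdk1: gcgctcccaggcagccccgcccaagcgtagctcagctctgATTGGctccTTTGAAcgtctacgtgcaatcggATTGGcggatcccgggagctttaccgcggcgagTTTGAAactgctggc
Ccnb1: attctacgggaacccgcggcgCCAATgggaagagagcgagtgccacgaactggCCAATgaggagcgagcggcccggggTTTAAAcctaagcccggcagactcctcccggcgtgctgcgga
Cdc20: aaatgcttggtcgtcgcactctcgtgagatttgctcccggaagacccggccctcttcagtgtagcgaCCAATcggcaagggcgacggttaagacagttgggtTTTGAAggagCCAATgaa
Cenpa: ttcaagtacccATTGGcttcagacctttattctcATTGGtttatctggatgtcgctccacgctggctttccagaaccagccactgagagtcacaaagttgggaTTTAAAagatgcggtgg
Anln: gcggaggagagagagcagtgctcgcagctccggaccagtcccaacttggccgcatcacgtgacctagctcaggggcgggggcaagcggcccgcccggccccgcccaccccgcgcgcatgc

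The first 4 windows hold both motifs. No match stood in the 250 bases before the start of Anln. A promoter entry was matched for 37 of the 43 genes. Within 250 bases before the start, 18 of the 37 (48.6%) held a CHR element, compared with 28.1% of the 27025 genes with an entry. A CCAAT box stood in 28 of the 37 (75.7%) against 37.5% of all genes, and both motifs in 16 (43.2%) against 10.1%. At least 2 CCAAT boxes stood in 19 of the 37 (51.4%) against 11.5%. A match is a string in the sequence and not a measured binding site.

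Total counts on genes ranged from 5602053 in cKO replicate 1 to 13602069 in control replicate 2, and the 43 genes took between 0.229% (cKO replicate 1) and 0.467% (control replicate 1) of them. Mitochondrial ribosomal RNA took 42.6% of gene counts in control replicate 3 and 9.97 to 19.2% in the others. All libraries carried the Treg genes, with Foxp3 at 325 to 608 and Cd4 at 412 to 718 CPM (gene counts scaled to a common library size, with TMM factors). Ythdf2 CPM were 124, 102 and 93.1 in control replicates 1, 2 and 3 and 90.1, 104 and 104 in cKO replicates 1, 2 and 3. The log2 difference was -0.10 ± 0.16 (SE), with an edgeR quasi-likelihood adjusted p of 1.00, so the transcript level did not check the genotype labels; which exons the floxed alleles remove was not given in the sources used here. Below, cKO means the libraries so labelled. The melanoma genes Dct and Tyrp1 were detected in all libraries although the sort gated on CD45+ CD4+ GFP+ cells. Dct CPM were 143, 212 and 15.2 in cage 1 (control replicates 1 and 2, cKO replicate 1) and 2013, 1003 and 1358 in cage 2 (control replicate 3, cKO replicates 2 and 3). Tyrp1 CPM were 101, 137 and 13.1 in cage 1 and 1333, 667 and 824 in cage 2.

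Transcripts of all 43 genes were detected in every library, at levels that differed widely between genes. Per kilobase of merged exons, the highest mean levels belonged to Mki67, a coat protein of mitotic chromosomes and the usual proliferation marker (88.4 CPM per kb), and Smc4, a condensin core subunit (80.5 CPM per kb). Top2a, the topoisomerase that untangles sister chromatids, followed at 39.4 CPM per kb, then the condensin subunit Smc2 at 22.0, the cyclin Ccnb2 at 18.4 and the spindle assembly factor Tpx2 at 18.3 CPM per kb. The lowest levels per kilobase were those of the checkpoint kinase Ttk (1.85 CPM per kb), the microtubule depolymerase Kif2c (2.79) and the phosphatase-targeting subunit Cdca2 (3.26). The order of the 43 levels was nearly the same in both genotypes (Spearman rank correlation of mean CPM per kb 0.946 across 43 genes, which share the 6 libraries and are not independent).

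No member differed between genotypes by the test. In edgeR's quasi-likelihood test with Benjamini-Hochberg adjustment over 13172 genes, 0 of the 43 were called at an adjusted p under 0.05, where 0% of all genes were called, and 0 of the 43 had an unadjusted p under 0.05, against 1.62% of all genes. DESeq2 and limma-voom also called 0 of the 43. The point estimates leaned to lower values in cKO. In 37 of the 43 (86.0%) the fold change was below 0, against 50.7% of all genes tested, and the median log2 fold change was -0.31 against -0.0049 over all genes. With library totals in place of TMM factors, which moved the median of all genes to 0.14, 31 were below 0 and 12 above. The libraries of a genotype overlapped for most members: all 3 cKO libraries lay below all 3 controls for 2 members (Birc5 and Kif20b), where 4.22% of all genes did so, and above them for 0, where 3.4% did. In bulk RNA, fewer cycling cells and less of these RNAs per cell cannot be told apart.

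**Figure D1:**
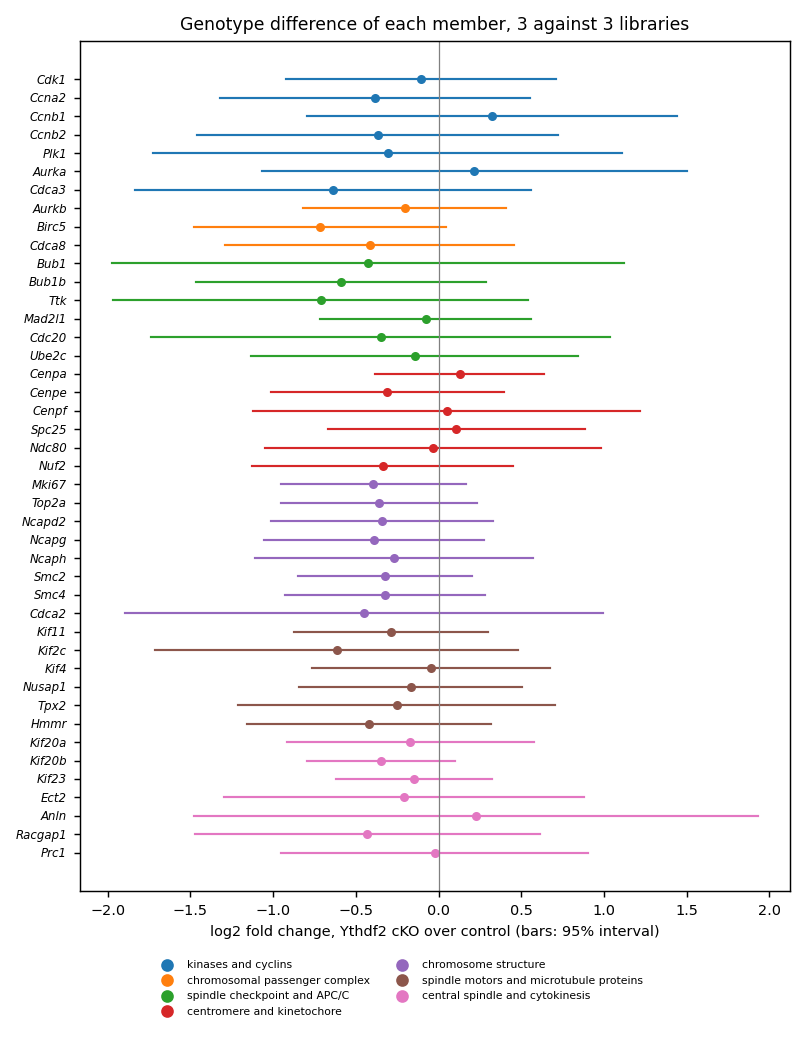
Log2 fold change of each of the 43 genes, cKO over control (horizontal axis; points are edgeR estimates from 3 against 3 libraries and bars 95% intervals), coloured by role. All 43 intervals contain 0, and 37 of the 43 points lie below it.

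Among chromosome structure proteins, Mki67 (mm10 chr7:135689784-135716361 on the minus strand) CPM were 1235, 1012 and 783 in control replicates 1, 2 and 3 and 588, 871 and 845 in cKO replicates 1, 2 and 3. The lowest value was that of cKO replicate 1, and the other cKO libraries lay within the range of the controls. Means were 1010 ± 226 CPM in controls and 768 ± 157 in cKO (SD, n = 3 each), a log2 fold change of -0.39 ± 0.24 (SE; 95% interval -0.95 to 0.16, edgeR adjusted p = 1.00). Top2a CPM were 460, 362 and 376 in controls and 200, 367 and 365 in cKO, so that 1 cKO library stood low and the others were level with control replicates 2 and 3 (log2 fold change -0.36 ± 0.25 SE, edgeR adjusted p = 1.00). Smc2, a core subunit of condensin, which compacts chromosomes, had 163, 132 and 108 CPM in controls and 79.8, 121 and 121 in cKO (-0.32 ± 0.22 SE on the log2 scale). All 8 members of the role, with Smc4, the condensin subunits Ncapd2, Ncapg and Ncaph, and Cdca2, had estimates below 0, with a median of -0.35, and none was called.

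The chromosomal passenger complex corrects kinetochore attachments and later guides cytokinesis. Its member Birc5, also called survivin (mm10 chr11:117849251-117855743 on the plus strand), had the smallest unadjusted p of the 43. Birc5 CPM were 40.7, 27.5 and 31.2 in controls and 12.3, 21.4 and 26.7 in cKO. The groups did not overlap, but the lowest control and the highest cKO library were close. Means were 33.2 ± 6.80 and 20.1 ± 7.28 CPM (SD, n = 3 each), and the log2 fold change was -0.72 ± 0.32 (SE; 95% interval -1.48 to 0.043), with unadjusted p = 0.061 and adjusted p = 1.00 in edgeR's test. Aurkb, the kinase of the complex, and Cdca8 (borealin) also had estimates below 0, and the median of the 3 was -0.42.

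Of the kinases and cyclins, Cdk1 CPM were 23.8, 23.8 and 43.1 in controls and 18.2, 29.7 and 35.9 in cKO. The cage 2 library was the highest of the controls, and the cage 2 libraries were likewise the higher of the cKO. The log2 fold change of Cdk1 was -0.11 ± 0.35 (SE). Ccnb1, the cyclin B1 partner of Cdk1, had the highest fold change of the 43: its CPM were 14.2, 11.3 and 12.8 in controls and 5.90, 21.8 and 20.04 in cKO, with 1 cKO library below and the others above every control (0.32 ± 0.48 SE on the log2 scale). Aurka, the kinase of spindle poles, had 11.9, 10.6 and 14.99 CPM in controls and 4.26, 17.9 and 21.2 in cKO, the same arrangement as Ccnb1 (0.22 ± 0.55 SE). Estimates of the other members, Ccna2 and Ccnb2 (cyclins), Plk1 (polo-like kinase) and Cdca3, were below 0, and the median of the 7 was -0.31. These values moved between directions with the settings: Ccnb1 stood at -0.16 and Aurka at -0.45 with cage as a term, and Cdk1 at 0.11 with library totals.

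All 6 estimates of the spindle checkpoint and APC/C genes were below 0, with a median of -0.39 on the log2 scale. Bub1b (BubR1), an inhibitor of APC/C in the checkpoint, had 64.3, 45.4 and 54.9 CPM in controls and 17.9, 53.6 and 37.5 in cKO. The means were 54.9 ± 9.45 and 36.3 ± 17.9 CPM (SD, n = 3 each), and 1 cKO library lay between the controls (log2 fold change -0.59 ± 0.37 SE, unadjusted p = 0.16, adjusted p = 1.00 in edgeR's test). Of the others, Bub1 and Ttk are checkpoint kinases, Mad2l1 (Mad2) binds Cdc20, Cdc20 activates APC/C and Ube2c is its ubiquitin-conjugating enzyme. Centromere and kinetochore genes were even between directions, with 3 of 6 estimates below 0 and a median of 0.0084. Cenpa, the histone H3 variant of centromeres, Cenpf and the Ndc80-complex subunit Spc25 were the 3 above 0, and Cenpe, a kinetochore motor, and the Ndc80-complex subunits Ndc80 and Nuf2 the 3 below.

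All 6 spindle motors and microtubule proteins had estimates below 0 (median -0.27): Kif11, the motor that separates spindle poles, Kif2c, Kif4, Nusap1, Tpx2 and Hmmr. Of the 7 central spindle and cytokinesis genes, 6 were below 0 (median -0.17). Kif20b, a kinesin of the central spindle, had 54.3, 56.1 and 55.5 CPM in controls and 34.2, 51.3 and 44.6 in cKO. Controls lay close together at 55.3 ± 0.911 CPM, and all cKO libraries lay below them at 43.4 ± 8.62 (SD, n = 3 each; log2 fold change -0.35 ± 0.19 SE, unadjusted p = 0.11, adjusted p = 1.00 in edgeR's test). Anln (anillin), the scaffold of the contractile ring, had 24.6, 23.8 and 59.2 CPM in controls and 7.53, 42.7 and 74.7 in cKO, with the highest and the lowest library both in cKO (0.23 ± 0.73 SE on the log2 scale). Anln stood at -0.75 with cage as a term. The rest of the role holds Kif20a, Kif23, Ect2, an exchange factor that acts at the cleavage site, its partner Racgap1, and Prc1, which bundles central spindle microtubules.

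One library was low across the roles. CPM were lowest in cKO replicate 1 for 36 of the 43 genes, where 32.4% of all genes tested had their lowest value there, and this library held the highest value of 0 of the 43. The median log2 deviation from each gene's mean over the 6 libraries was -1.03 in cKO replicate 1 (range -2.20 to 0.052), against 0.32, 0.045 and 0.27 in control replicates 1, 2 and 3 and 0.17 and 0.25 in cKO replicates 2 and 3. The 7 exceptions were Aurkb and Kif4, lowest in cKO replicate 2, Cdca8 and Smc4 (cKO replicate 3), Cenpa and Nusap1 (control replicate 3) and Spc25 (control replicate 2). The same library had the fewest counts, the lowest Dct and Tyrp1 and the lowest CPM for 14 of the 15 genes of a melanoma list. Its share of reads without a feature was the highest, 35.8% against 24.6 to 30.6% in the others. Summed CPM of the melanoma list were 64.0 there against 444 to 6040 in the others, with 3 of its 15 genes at 0 reads there and none at 0 elsewhere. Summed CPM of 12 macrophage genes were 9.34 there (7 genes at 0) against 41.3 to 564 elsewhere. Summed CPM of 10 Treg genes were 9237 there against 5001 to 9173 elsewhere. The part of these differences in the low mitotic transcripts was not tested.

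**Figure D2:**
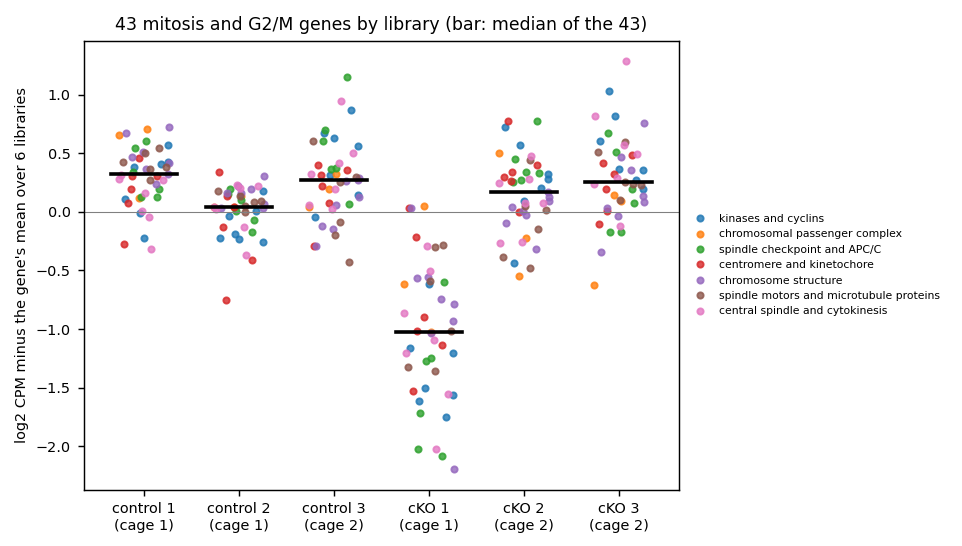
Each point is 1 of the 43 genes in 1 library, as log2 CPM minus the gene's mean over the 6 libraries (vertical axis), coloured by role, and bars are medians. The bar of cKO replicate 1 is at -1.03, and the other 5 bars are at 0.045 to 0.32.

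The spread over libraries differed widely between members. The highest CPM was 9.92 times the lowest for Anln, 9.40 times for Bub1, 7.73 times for Cdca2 and 6.51 times for Cdc20. At the other end stood Kif23, a cytokinesis kinesin, at 1.497 times, Cenpa at 1.55, Kif20b at 1.64 and Aurkb at 1.67 times. Bub1 CPM were 22.0, 17.8 and 44.7 in controls and 4.75, 34.5 and 23.0 in cKO, while Cenpa CPM were 66.1, 101 and 65.3 in controls and 81.9, 98.0 and 74.3 in cKO. Bub1 was lowest in cKO replicate 1, whereas Cenpa was higher there than in 3 of the other libraries. These genes were singled out from their values, as were the genes named below for passing a test within or between cages. The median spread was 2.78-fold for the 16 members with both promoter motifs and 2.83-fold for the 21 with an entry but not both, close to each other. Of the windows printed above, those of Cdc20 and Cenpa, a wide and a narrow spread, hold both motifs, and that of Anln, the widest, holds neither.

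Left without cKO replicate 1, the median log2 fold change between genotypes was -0.041, with 22 of the 43 estimates below 0 and 21 above. Leaving out any other library gave medians from -0.47 to -0.19. With cage as a term beside genotype, 42 of the 43 estimates were below 0, with a median of -0.54. Of these, 12 had an unadjusted p under 0.05 in edgeR's quasi-likelihood test, all lower in cKO, where 5.9% of all genes did, and 0 were called after adjustment (0% of all genes).

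Within cages, the members were lower in cKO in cage 1 and spread around 0 in cage 2. In cage 1, cKO replicate 1 lay below both controls for 40 of the 43 genes, where 46.6% of all genes did so, all 43 estimates were below 0, and their median was -1.16 on the log2 scale against -0.094 over all genes. In the fit of genotype by cage, which has 2 residual degrees of freedom and assumes that a lone library varies like the others, 33 of the 43 had an unadjusted p under 0.05 and were lower, against 15.3% of all genes. After adjustment 3 of the 43 fell, where 0.471% of all genes fell and 0.0456% rose, with 0 members among those. In cage 2, both cKO libraries lay above control replicate 3 for 13 members (34.4% of all genes) and below it for 15 (34.2%), and the median was 0.011 with 20 estimates below 0 and 23 above. There 0 members were called (0.0531% of all genes) and 0 had an unadjusted p under 0.05 (7.08%).

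The 3 members that fell within cage 1 were Cenpf, Tpx2 and Racgap1. Cenpf, a large kinetochore protein that accumulates in G2, had 147 and 128 CPM in the cage 1 controls and 48.3 in cKO replicate 1, while in cage 2 it had 184 in the control and 239 and 186 in cKO. Its cage 1 fold change was -1.51 ± 0.23 (SE, log2; adjusted p = 0.042 in edgeR's test). Tpx2, which activates Aurora A on spindle microtubules, had 102 and 82.1 CPM in the cage 1 controls against 31.0, and in cage 2 94.7 in the control against 108 and 94.7 (cage 1 fold change -1.57 ± 0.24 SE, adjusted p = 0.042). Racgap1 had 56.8 and 55.0 CPM against 16.1 in cage 1 and 66.7 against 49.6 and 66.3 in cage 2 (cage 1 fold change -1.80 ± 0.28 SE, adjusted p = 0.042). In all 3 the lone cage 1 cKO library was low, and the cage 2 libraries of both genotypes overlapped or lay close. The calls depended on which libraries were kept while the folds moved little. Without control replicate 1 the estimates of Cenpf, Tpx2 and Racgap1 were -1.41, -1.42 and -1.78, with adjusted p of 0.054, 0.072 and 0.073. Without control replicate 3 they were -1.49, -1.56 and -1.78, with adjusted p of 0.056, 0.056 and 0.060. Over all members, 0 passed without control replicate 1 and 0 without control replicate 3, against 6 without control replicate 2, 10 without cKO replicate 2 and 13 without cKO replicate 3, while the members' median stayed between -1.37 and -0.98. Cdca2 had the largest cage 1 estimate, -2.72 (adjusted p = 0.057), with 26.0 and 19.5 CPM in the controls against 3.44.

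**Figure D3:**
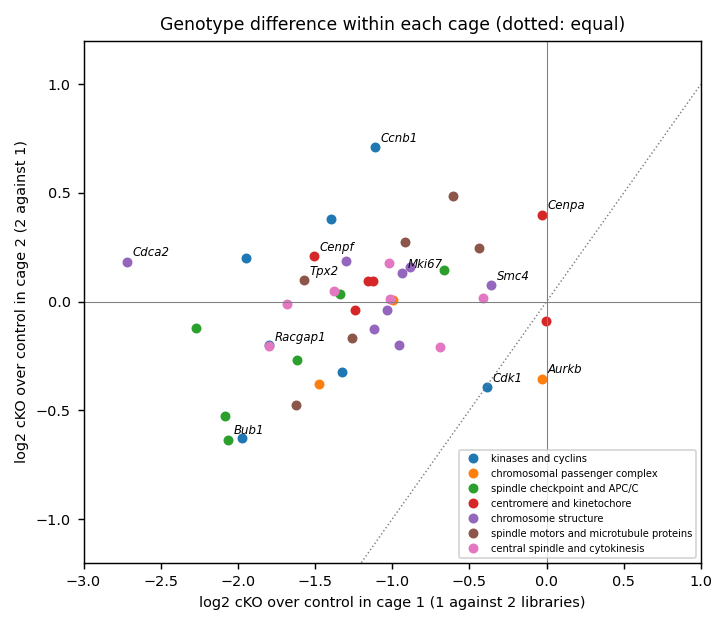
Log2 fold change of each of the 43 genes, cKO over control, in cage 1 (horizontal axis, 1 against 2 libraries) and cage 2 (vertical axis, 2 against 1), coloured by role, with the dotted line marking equal values. All 43 points lie below 0 in cage 1, and in cage 2 they spread on both sides of 0 with a median of 0.011.

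The difference between the cage 1 and cage 2 effects was tested directly by the interaction of genotype and cage. Its estimate was above 0 for 40 of the 43 genes, meaning a higher cKO level relative to control in cage 2, with a median of 1.19 on the log2 scale against 0.17 over all genes. An unadjusted p under 0.05 was reached by 26 members, all above 0, where 11% of all genes reached it, and 0 were called after adjustment in edgeR's test, where 0.0456% of all genes were; the smallest adjusted p of a member was 0.139, for Cenpf. The role medians ran from -1.84 (checkpoint and APC/C) and -1.40 (kinases and cyclins) to -0.997 (chromosome structure) and -0.996 (passenger complex) in cage 1.

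Between the cages themselves, with genotype as a term, 6 of the 43 rose in cage 2, where 7.83% of all genes did, and 0 fell, where 3.68% did. All cage 2 libraries lay above all cage 1 libraries for 8 members (Cdk1, Aurka, Bub1, Ube2c, Cenpf, Ndc80, Anln and Prc1), where 15.1% of all genes did so. The median cage difference of the members was 0.58 on the log2 scale against 0.013 over all genes, and 39 were above 0. With library totals in place of TMM factors, which moved the median of all genes to -0.32, the members' median was 0.25, with 32 above 0 and 11 below. The genes that passed were Anln (2.04 ± 0.39 SE, log2; edgeR adjusted p = 0.013), Bub1 (1.79 ± 0.37; 0.016), Cdk1 (0.85 ± 0.20; 0.029), Prc1 (1.00 ± 0.25; 0.033), Cdca3, a factor for mitotic entry (1.25 ± 0.35; 0.049), and Cenpf (1.25 ± 0.35; 0.049).

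Without cKO replicate 1, 0 of the 43 were called, the median was 0.030 and 22 estimates were above 0 and 21 below. Anln then stood at 1.28 (adjusted p = 0.064) and Bub1 at 1.16 (0.080). Prc1 stood at 0.50 (0.24), Cdca3 at 0.64 (0.27) and Cenpf at 0.41 (0.31). The estimate of Cdk1 did not depend on that library: it was 0.85 with and without it, and its adjusted p was 0.10 without it and 0.067 to 0.11 without control replicate 1, 2 or 3 or cKO replicate 3. Leaving out each of the other libraries gave 2 to 22 calls, the 22 without control replicate 3. With library totals in place of TMM factors, Anln alone of the 6 passed (1.71, adjusted p = 0.046). Smc4 had the lowest cage difference, -0.46 (adjusted p = 0.17), with 648, 417 and 416 CPM in cage 1 and 333, 382 and 320 in cage 2.

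**Figure D4:**
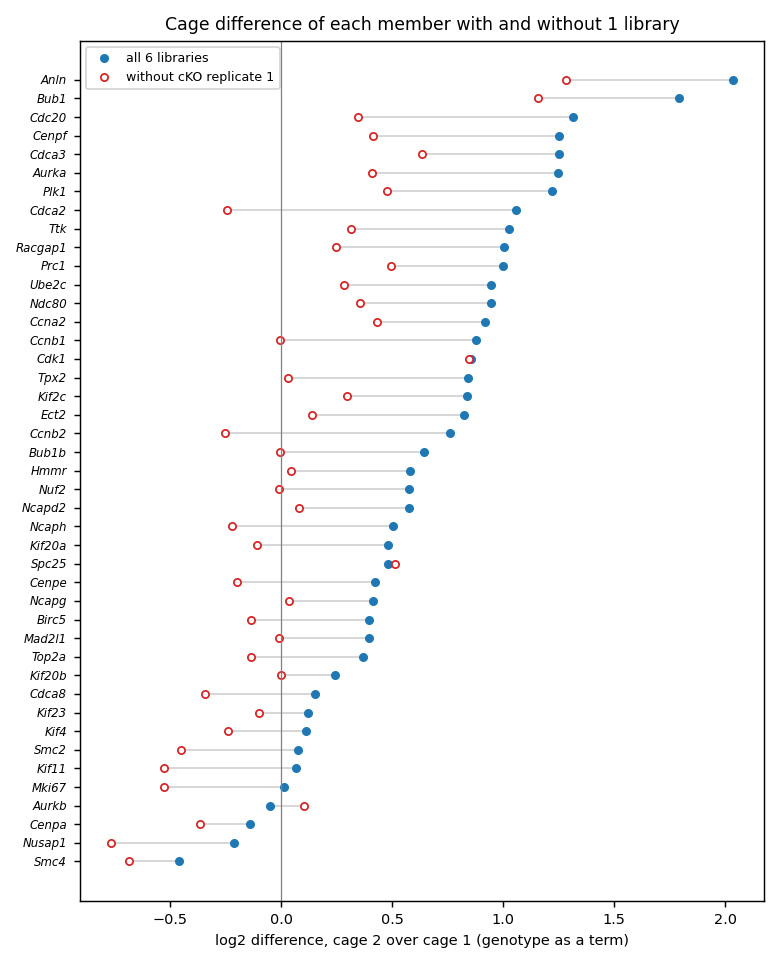
Log2 difference between cages, cage 2 over cage 1 with genotype as a term (horizontal axis), for each of the 43 genes with all 6 libraries (filled) and without cKO replicate 1 (open). Filled points are above 0 for 39 genes and open points for 22, and Cdk1 and Spc25 hardly move.

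The melanoma genes moved with cage as well. Dct was higher in cage 2 by 4.72 on the log2 scale (edgeR adjusted p = 0.0014) and Tyrp1 by 4.49 (adjusted p = 0.00074), and 14 of the 15 melanoma genes rose in cage 2 while 7 of the 10 Treg genes fell, Foxp3 by 0.65 (adjusted p = 0.0091). Of the 12 macrophage genes, 7 rose. Of all genes tested, 7.83% rose in cage 2 and 3.68% fell. The part of these melanoma, Treg and macrophage differences in the cage difference of the mitotic genes was not tested. Melanoma cells cycle too and express genes of mitosis. With the mean log2 CPM of Dct and Tyrp1 as a covariate, the genotype median of the members was -0.34 and 38 of 43 estimates were below 0. Summed CPM of the 15 melanoma genes were 444, 628 and 64.0 in cage 1 (control replicates 1 and 2, cKO replicate 1) and 6040, 2987 and 4100 in cage 2 (control replicate 3, cKO replicates 2 and 3). Summed CPM of the 43 members were 4337, 3480 and 2102 in cage 1 and 3428, 3511 and 3540 in cage 2. Both sums were lowest in cKO replicate 1. The members' sum was highest in control replicate 1, where the melanoma sum was the next to lowest. Much of the members' sum came from the 8 chromosome structure genes. These held 2737, 2119 and 1376 CPM in cage 1 and 1815, 1928 and 1875 in cage 2. Their sum and those of the passenger complex and the spindle motor role were highest in control replicate 1. The sums of the kinase, checkpoint, kinetochore and cytokinesis roles were highest in a cage 2 library.

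**Figure D5:**
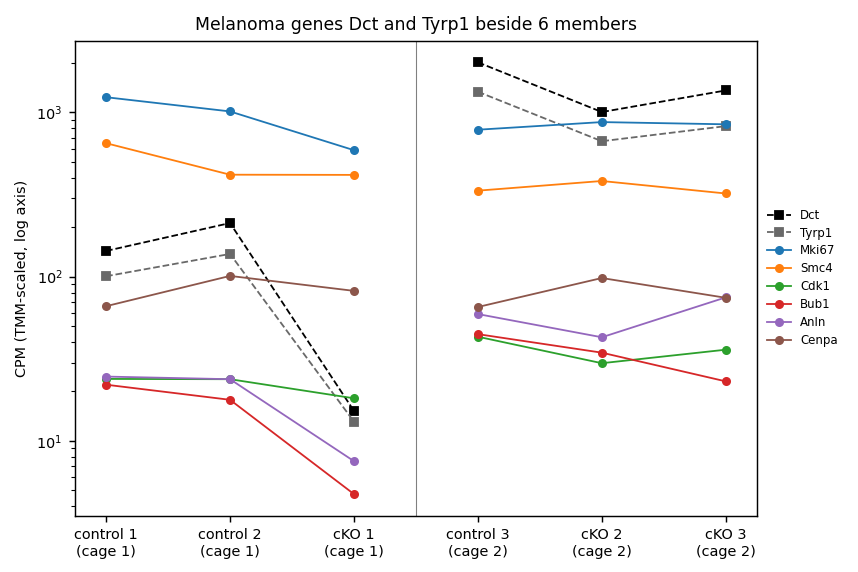
CPM on a log axis in each library for the melanoma genes Dct and Tyrp1 (squares, dashed) and 6 of the 43 genes (circles), with cage 1 left and cage 2 right; lines join the points of a gene for reading only. Dct and Tyrp1 are lowest in cKO replicate 1 at 15.2 and 13.1 CPM. Mki67, Cdk1, Bub1 and Anln are also lowest there, the last of them at 7.53 CPM. Smc4 is lowest in cKO replicate 3 at 320 CPM and Cenpa in control replicate 3 at 65.3 CPM.

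Other genes of the pathway were read the same way, from lists chosen by function, also with earlier results of these data known. Of 60 further mitotic genes, 49 (81.7%) had genotype estimates below 0 (median -0.23), where 50.7% of all genes did. Lowest in cKO replicate 1 were 37 of the 60 (61.7%), against 32.4% of all genes. In edgeR's test 0 were called and 2 had an unadjusted p under 0.05 (1.62% of all genes). These were Arhgap11a, a cytokinesis factor, at 54.0 ± 4.96 CPM in controls and 41.4 ± 1.198 in cKO (SD, n = 3 each; -0.38 ± 0.16 SE on the log2 scale), and Incenp, the passenger complex scaffold, at 129 ± 12.7 and 103 ± 5.53 CPM (-0.33 ± 0.14 SE). In both, the 3 cKO libraries lay close together below the controls: 40.3, 41.2 and 42.7 CPM for Arhgap11a against 59.4, 52.9 and 49.7. Both genes were picked by their small p, which favours such an arrangement, so it is not a separate result. Within cage 1, Espl1 (separase) had 24.6 and 20.9 CPM in controls against 3.60 in cKO replicate 1. There Sgo1 (shugoshin, which protects cohesin at centromeres) had 10.6 and 8.46 CPM in controls against 0 reads in cKO replicate 1. Both genes were named for their values within cage 1. Of 17 APC/C subunits, the core of the ligase, 9 (52.9%) were below 0 and 6 (35.3%) were lowest in cKO replicate 1. Both shares were close to those of all genes, 50.7% and 32.4%.

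Of 23 regulators of cell cycle transcription, 15 (65.2%) had genotype estimates below 0 (median -0.18), where 50.7% of all genes did, and 0 were called. Tfdp1, the dimerization partner of E2F factors, had the smallest unadjusted p (0.039), with 59.4 ± 4.00 CPM in controls and 40.2 ± 10.3 in cKO (SD, n = 3 each; adjusted p = 1.00 in edgeR's test). Foxm1, an activator of G2/M genes, rose in cage 2 by 1.14 ± 0.26 (SE, log2; edgeR adjusted p = 0.024), with 40.1, 34.2 and 21.1 CPM in cage 1 and 59.8, 55.2 and 74.6 in cage 2, and its adjusted p was 0.16 with library totals. Rbl2 (p130), the pocket protein of the DREAM complex, fell in cage 2 by 0.75 (adjusted p = 0.015), with 425, 523 and 466 CPM in cage 1 and 243, 338 and 305 in cage 2. The cage median of the 23 was -0.028. Of 42 DNA replication genes, which act earlier in S phase, 34 (81.0%) were below 0 between genotypes (median -0.19), against 50.7% of all genes. Lowest in cKO replicate 1, where 32.4% of all genes were, stood 21 (50%) of the 42. Between genotypes 0 of them were called, Mcm2 rose in cage 2 (adjusted p = 0.046, and 0.39 with library totals) and Pola1 fell within cage 1. Of 10 G1 cyclins and kinases, 8 (80%) were below 0 between genotypes (median -0.13), against 50.7% of all genes. In cage 2, 3 of the 10 rose, where 7.83% of all genes did. These were Ccnd1 by 4.53 (edgeR adjusted p = 0.00061), Cdk2 by 2.02 (0.00056) and Cdk4 by 0.86 (0.028, and 0.27 with library totals). Cdk6, a partner of D-type cyclins, fell in cage 2 by 0.64 (adjusted p = 0.047). The exons of Cdk2 overlap those of the melanocyte gene Pmel on the other strand, and Ccnd1 had 1.59, 2.504 and 0.819 CPM in cage 1 against 42.0, 16.0 and 34.98 in cage 2. Of 17 cell cycle brakes tested, 8 (47.1%) were below 0 between genotypes (median 0.019), against 50.7% of all genes. Between cages 3 of the 17 fell in cage 2, where 3.68% of all genes did, and 0 rose, where 7.83% did. The cage median was -0.33. Those that fell were the stress-induced Gadd45b by 0.94 (edgeR adjusted p = 0.0041), the CDK inhibitor Cdkn1b (p27) by 0.49 (0.040) and the antiproliferative Btg2 by 0.41 (0.045, and 0.051 with library totals).

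Exons of 12 of the 43 genes overlap those of another gene, among them Ccna2, Cdc20, Plk1, Prc1, Top2a and Ube2c. The strand setting of the counting was not given in the sources used here. How reads of the overlaps were assigned, or whether they were set aside, is therefore not known. Reads set aside as ambiguous were 1.43 to 2.21% of all reads in the table. The median genotype log2 fold change was -0.33 for these 12 and -0.31 for the other 31.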

How the data were processed

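Total RNA of sorted tumour Treg cells was sequenced in 6 libraries, 3 per genotype, and the labels name a SMARTer v2 kit for stranded libraries. Raw counts were deposited by the authors, as reads per gene and library, and the submitters' processing notes name Trimmomatic 0.39, HISAT2 2.1.0, HTSeq, DESeq2 and the mm10 build. The annotation release and the strand setting were not given in the sources used here. Rows that name no gene were left out of library sizes. Unassigned reads without a feature were 35.8% of all reads in the table in cKO replicate 1 and 24.6 to 30.6% in the others.

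Counts were analysed with edgeR 4.0.16 in R 4.3.3 (filterByExpr with a minimum count of 10, TMM factors, quasi-likelihood test, two-sided, Benjamini-Hochberg over 13172 genes, threshold 0.05), by genotype, by cage with genotype as a term, and by genotype within cages. All reported adjusted p-values come from this test. Alternatives used DESeq2 1.42.0 and limma 3.58.1. Positions and exons came from GENCODE M21 and promoters from RefSeq. No library looked like a second deposit of another (chi-square over degrees of freedom at least 17.4 for each pair), so none were merged; this does not show that they came from separate animals. The genotype test was tried on simulated data without a cage effect. The tests between cages, within cages and of the interaction were not tried in that way. The members and all gene lists were chosen with earlier results of these data known. Full values are given for Mki67, Top2a, Birc5, Cdk1, Ccnb1, the 5 members with the smallest p between genotypes and the 3 with the highest fold change. From other lists, up to 3 genes with the smallest p between genotypes could be named. Other genes of these lists were named because they passed a test between or within cages.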

Additional observations from a re-analysis of the deposited data

How the results depend on the processing

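No member was called between genotypes under any alternative run (TMM replaced by RLE, upper quartile or library totals, other filters, removal of mitochondrial, ribosomal RNA and haemoglobin genes, cage or the Dct and Tyrp1 level as a term, DESeq2, limma-voom, a threshold of 0.1, or 1 library left out). Without a filter on low counts, 33 of all genes were called between genotypes, none of them a member. The median genotype log2 fold change of the members stayed below 0 in all of these, from -0.54 with cage as a term to -0.041 without cKO replicate 1. Cdk1 was above 0 with library totals (0.11), with limma-voom (0.039), without control replicate 3 (0.27) and without cKO replicate 1 (0.12), and ran from -0.33 to 0.27 over all libraries left out in turn. Anln was below 0 with cage as a term (-0.75) and without control replicate 2 (-0.0034) or cKO replicate 3 (-0.50), and ran from -0.50 to 0.83 over libraries left out. Ccnb1 was below 0 with cage as a term (-0.16), as was Aurka (-0.45), which was also below 0 without cKO replicate 3 (-0.17; range over libraries left out -0.17 to 0.64). Leaving out 1 library, genes called between cages numbered 660 to 1234 (1516 with all), the members' cage median ran from 0.030 to 1.22 (0.25 with library totals and all libraries), members called higher in cage 2 from 0 to 22 and members called lower within cage 1 from 0 to 13. The cause was not tested in any of these. Counts of members called between or within cages with libraries left out, and the cage difference of genes of other lists with library totals, were alternatives chosen after seeing the data. With a replicate block the members' genotype median was -0.38, Anln stood at -0.092 and Aurka at -0.014, and no member was called. The replicate numbers are not stated to pair libraries. Deviations of log2 CPM from each gene's genotype mean correlated at 0.41, -0.24 and 0.55 between same-numbered libraries. Between differently numbered control and cKO libraries they ran from -0.56 to 0.46. The values were above 0 for pairs from the same cage and below 0 for pairs from different cages. The lowest read number of a member in a library was 15, so depth did not leave any of the 43 without reads; the number of libraries limits the intervals.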
